A study of Arabidopsis thaliana with 50 samples.

Results

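Class III peroxidases are haem enzymes that plants secrete into the cell wall and the space between cells. They oxidise phenolic compounds with hydrogen peroxide, by which lignin monomers are joined and wall proteins such as extensins are cross-linked, and some of them also make hydrogen peroxide during an attack by microbes. The genes described here are those of Arabidopsis thaliana whose annotation in the authors' deposited table contains the word peroxidase, leaving out ascorbate and glutathione peroxidases, which work inside the cell. The rule found 40 of the 18231 genes of that table. The label of secreted class III peroxidases fits 33 of them, whose coding sequence, translated, holds the stretch around the distal histidine that class III enzymes share. RefSeq's annotation places 25 of the 33 in the cell wall, the apoplast or the endomembrane system. The other 7 are 4 proteins related to acid phosphatases and vanadium haloperoxidases, the homeodomain transcription factor OCP3 (overexpressor of cationic peroxidase 3), the pseudogene AT1G33660 and AT3G42570, a short reading frame without the stretch. These 7 are not class III peroxidases and are described on their own. In the genome's annotation, 73 loci carry the stretch, of which 35 were listed in the table and 38 were not and have no value here. The 2 listed loci outside the rule, AT3G63500 and AT5G42620, are annotated as other proteins.

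RNA was sequenced in 50 libraries from apical and basal parts of fully expanded rosette leaves of 7-week-old plants of the accession Col-0, grown at 22 °C with 8 h of light per day. The 5 lines were wild type, pp2a-b’γ (b'γ for short), a mutant of B'γ, a regulatory subunit of protein phosphatase 2A, the double mutant pp2a-b’γζ (b'γζ), which is also mutant in the B'ζ subunit, the double mutant pp2a-b’γ sid2 (b'γ sid2), which also carries sid2, a lesion of the salicylic acid synthesis gene ICS1, and pp2a-b´γ complemented with P35S:PP2A-B’γ (complemented plants). All lines other than wild type carry the b'γ mutation, and complemented plants express B'γ from a constitutive viral promoter and not from its own. Each of the 10 groups was sampled as 5 pools, each made from 7 leaves, and the apical and basal pools of 1 number came from the same leaves. The labels describe the apical parts of b'γ as yellowing and dying and its basal parts as free of symptoms. The deposited values are log fold changes, read here as base 2, between the apical parts of each line and those of wild type. With them stand 1 p-value per gene for genotype, 1 for tissue (the leaf part) and 1 for their interaction, each taken over all lines. They hold no value per pool, so no SD between pools can be given, the depth is unknown, and levels cannot be compared between genes. In whole leaf parts, fewer cells of a type and less RNA per cell cannot be told apart.

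A gene is called higher or lower in a line where its value is at least 1 in size on the log2 scale, which is 2-fold. The words rose and fell are used of a gene only if it also passed the largest-error test. This test takes for each gene the largest error that its deposited genotype and interaction p-values allow, with line means held within 20 log2 units. Its p-values have Benjamini-Hochberg adjustment over the 25801 genes that the authors tested. The error given beside a value is this largest standard error (SE), an upper bound and not a measured spread. It is a bound only if the p-values came from an analysis of variance with 1 variance common to all 10 groups. The labels do not state the authors' model. If the yellowing b'γ pools varied more than the other groups, the error of their values can be larger than this SE. The same wild-type pools stand in all 4 comparisons with wild type, and the same b'γ pools in all 3 comparisons with b'γ. As a check of the labels, the deposited value of B'ζ (AT3G21650) was -2.59 in b'γζ, and the values of B'γ (AT4G15415) were -0.69 in b'γ, -0.46 in b'γζ, -0.72 in b'γ sid2 and 0.35 in complemented plants, each under 2-fold. ICS1 (AT1G74710) had 3.175 in b'γ, 0.61 in b'γζ, -0.97 in b'γ sid2 and 0.32 in complemented plants. Its value in b'γ sid2 lay under 2-fold and did not pass the largest-error test.

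The 33 enzymes are shown by the coding stretch around the distal histidine, because this is the feature by which they were recognised and because near-identical copies can share reads. The stretches below are from RefSeq's TAIR10.1 coding sequences, 39 bases each, with the histidine codon in capitals, for the members on which the results turn.
PRX52: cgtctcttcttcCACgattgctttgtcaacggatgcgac
PRX37: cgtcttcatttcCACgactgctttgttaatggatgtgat
PRX38: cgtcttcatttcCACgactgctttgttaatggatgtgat
PRX58: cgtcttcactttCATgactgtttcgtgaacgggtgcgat
PRX53: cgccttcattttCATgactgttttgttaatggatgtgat
PRX54: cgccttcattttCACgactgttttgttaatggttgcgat
PRX33: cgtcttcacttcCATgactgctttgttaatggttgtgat
PRX34: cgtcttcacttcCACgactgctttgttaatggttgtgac
PRX32: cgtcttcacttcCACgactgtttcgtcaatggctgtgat
PRX50: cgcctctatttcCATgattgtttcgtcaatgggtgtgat
PRX51: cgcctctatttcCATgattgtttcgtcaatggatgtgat
PRX12: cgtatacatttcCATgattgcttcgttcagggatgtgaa
The stretches of PRX37 and PRX38 had no different base, those of PRX50 and PRX51 differed at 1 base of 39, those of PRX33 and PRX34 at 2 and those of PRX53 and PRX54 at 3. Over the whole coding sequence, PRX37 and PRX38 were 93.8% identical, PRX50 and PRX51 92.4%, PRX33 and PRX34 90.4% and PRX53 and PRX54 80.8%. PRX32 was 84.2% identical to PRX34 and 83.1% identical to PRX33. How the authors assigned reads that match more than 1 of these genes is not given in the sources used here, so values within these pairs are uncertain where reads could be split between them. AT1G05240 had the same coding sequence, base for base, as its unlisted neighbour AT1G05250.

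In the yellowing apical parts of b'γ, many class III peroxidase transcripts were far above wild type. Of the 33 class III members, 19 were higher and 6 were lower, and 12 of the 19 rose. None of the other 7 members was higher and 4 of them were lower. Over all 40 members this is 19 higher against 17% of all listed genes, and 10 lower against 16.2%. With the largest-error test it is 12 against 7.65% of listed genes higher, and 1 against 6.37% lower. The median deposited value of the 33 class III members was 3.07, beside 0.02 for all listed genes. The 7 class III members under 2-fold in all 4 lines were AT1G05240, PRX20, PRX29, PRX31, PRX39, PRX43 and PRX56.

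**Figure D1:**
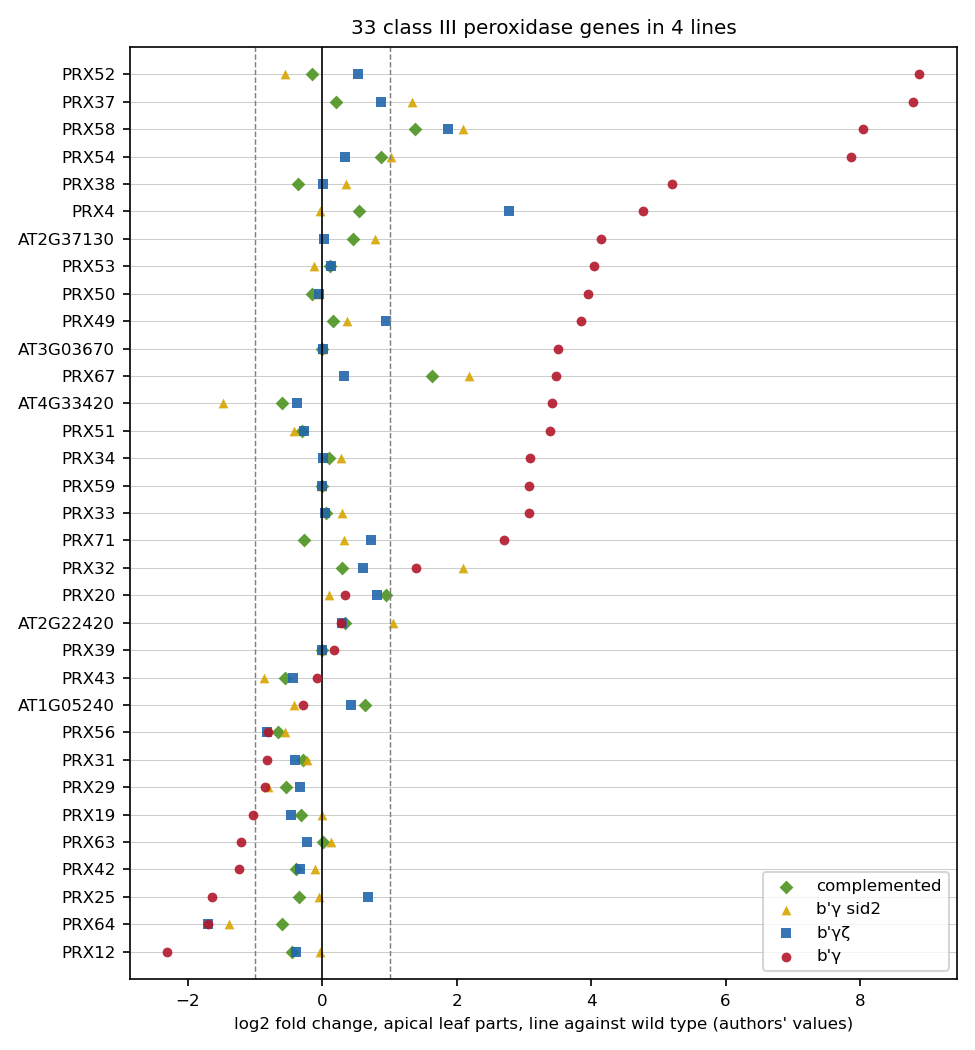
Deposited log2 fold changes, apical parts against apical wild type (horizontal axis) for the 33 class III peroxidase genes (rows, ordered by their value in b'γ) in b'γ (circles), b'γζ (squares), b'γ sid2 (triangles) and complemented plants (diamonds), with dashed lines at 2-fold. The circles reach from -2.30 (PRX12) to 8.88 (PRX52), while the values of the other 3 lines lie between -1.71 and 2.77.

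**Figure D2:**
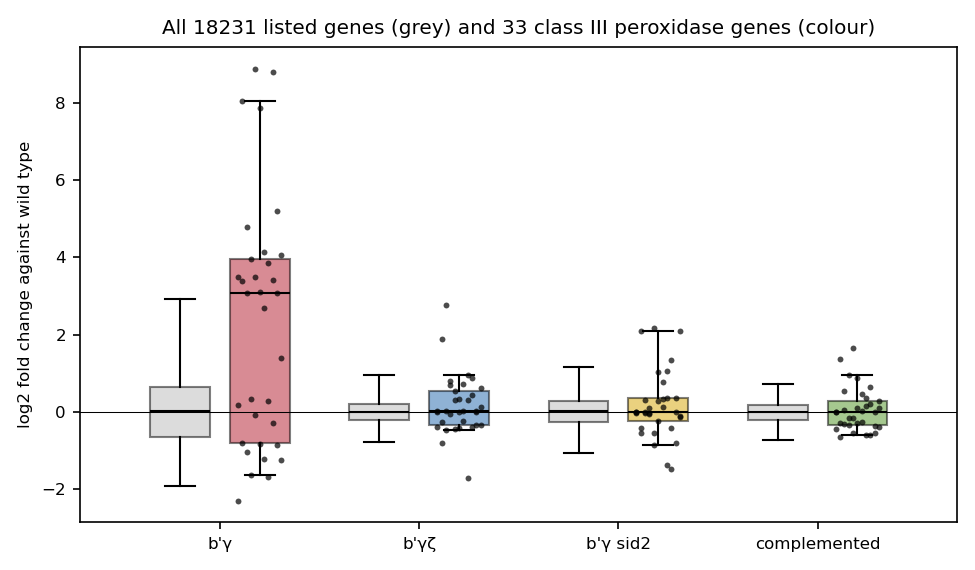
Deposited log2 fold changes against wild type (vertical axis) of all 18231 listed genes (grey boxes) and of the 33 class III members (coloured boxes and points) in each line; boxes span the quartiles with the median as a line, and whiskers the 5th to 95th percentile. The class III median stands at 3.07 in b'γ, and at 0.01, 0 and 0 in b'γζ, b'γ sid2 and complemented plants.

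The 4 highest members, PRX52, PRX37, PRX58 and PRX54, had values of 7.86 to 8.88 in b'γ, and the next, PRX38, had 5.20. PRX52 (AT5G05340, chromosome 5, 1578869 to 1580875, minus strand, 4 coding exons) is known in Arabidopsis for a part in lignin formation in the stem. Its deposited values were 8.88 in b'γ, 0.53 in b'γζ, -0.55 in b'γ sid2 and -0.16 in complemented plants. It rose in b'γ with a largest SE of 1.58 (largest-error test, adjusted p of 6.26e-05), and was the 23rd highest of all listed genes there. PRX52 lies 20382 bases beyond the end of a stretch of chromosome 5, AT5G03406 to AT5G05250, whose listed genes had median values of 0.96, 0.999 and 1.02 in b'γ and its double mutants with b'ζ and sid2 and of 0.01 in complemented plants; no member lies inside that stretch. The running median of 31 listed genes around PRX52 was 0.43 in b'γ, 0.48 in b'γζ, 0.18 in b'γ sid2 and 0.11 in complemented plants, beside chromosome-wide medians of such running medians of 0.02, -0.01, 0.01 and 0. The part of this neighbourhood in the values of PRX52 was not tested.

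PRX37 (AT4G08770, chromosome 4, 5598037 to 5600398, minus strand) is a vascular peroxidase that restrained growth when overexpressed in Arabidopsis. It had values of 8.78 in b'γ, 0.87 in b'γζ, 1.33 in b'γ sid2 and 0.21 in complemented plants, and it rose in b'γ (largest SE 0.989, adjusted p of 1.11e-08). PRX38 (AT4G08780), its neighbour 3706 bases away with no protein-coding gene between, had values of 5.20, 0.01, 0.35 and -0.36 in the same order. It also rose in b'γ (largest SE 0.663, adjusted p of 1.89e-07).

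PRX58 (AT5G19880, chromosome 5, 6720384 to 6722477, minus strand) was the member that stood at least 2-fold above wild type in every line. Its deposited values were 8.04 in b'γ, 1.87 in b'γζ, 2.09 in b'γ sid2 and 1.37 in complemented plants. It rose in b'γ (largest SE 0.756, adjusted p of 1.37e-10), and passed the largest-error test in none of the other 3 lines, where the adjusted p was 0.297, 0.0952 and 1. Its neighbour PRX59 (AT5G19890), 1598 bases away and 56.6% identical in its coding sequence, had a value of 3.08 in b'γ and was listed at 0 in the other 3 lines. PRX59 did not pass the test in b'γ (largest SE 3.66, adjusted p of 0.825). A gene listed at exactly 0 in several lines had the same value there as in wild type, as a gene at the authors' floor would, so its b'γ value is not read as a fold against a measured level.

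PRX54 (AT5G06730, chromosome 5, 2079925 to 2081685, minus strand) had values of 7.86 in b'γ, 0.33 in b'γζ, 1.02 in b'γ sid2 and 0.87 in complemented plants, and rose in b'γ (largest SE 0.748, adjusted p of 1.86e-10). PRX53 (AT5G06720), one of the few plant peroxidases with a known crystal structure, lies 919 bases from it. It had values of 4.05, 0.13, -0.13 and 0.11 in the same order, and it rose in b'γ (largest SE 1.003, adjusted p of 0.00332).

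PRX33 (AT3G49110) and PRX34 (AT3G49120) are close relatives of the horseradish enzyme and are known in Arabidopsis for making the apoplastic burst of hydrogen peroxide that follows the recognition of microbes. PRX33 had values of 3.07 in b'γ, 0.03 in b'γζ, 0.29 in b'γ sid2 and 0.05 in complemented plants, and PRX34 had 3.09, 0.01, 0.28 and 0.09. Both rose in b'γ, PRX33 with an adjusted p of 0.000755 (largest SE 0.663) and PRX34 with 0.000411 (largest SE 0.634). The values of these neighbours, 4385 bases apart with 1 gene between, were nearly the same in each line. Their relative PRX32 (AT3G32980) had another order, with 1.39 in b'γ, 0.61 in b'γζ, 2.09 in b'γ sid2 and 0.29 in complemented plants. PRX32 failed the largest-error test both in b'γ (adjusted p of 0.327) and with sid2 (adjusted p of 0.153).

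The other members that rose in b'γ were PRX50, AT2G37130, PRX67 and PRX51. PRX50 (AT4G37520) rose to 3.95 (largest SE 0.514, adjusted p of 2.82e-07), and its neighbour PRX51 (AT4G37530), 1446 bases away, to 3.38 (largest SE 0.847, adjusted p of 0.0036). Both stood at or below wild type elsewhere, with values from -0.15 to -0.04 for PRX50 and from -0.42 to -0.28 for PRX51. AT2G37130 rose to 4.15 (largest SE 0.796, adjusted p of 0.000177), with 0.03 in b'γζ, 0.78 in b'γ sid2 and 0.46 in complemented plants. PRX67 (AT5G58390) rose to 3.48 in b'γ (largest SE 1.15, adjusted p of 0.0316), with 0.32 in b'γζ, 2.18 in b'γ sid2 and 1.64 in complemented plants. PRX67 was the highest member in b'γ sid2 and in complemented plants, where it did not pass the test (adjusted p of 0.439 and 1).

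Apart from PRX52, 4 members tied to lignin in the Arabidopsis stem or root lay on both sides of wild type in b'γ. Other members were not sorted by this role, among them those named here by locus identifier alone, so this set may be incomplete. PRX4 (AT1G14540) and PRX71 (AT5G64120) were higher without passing the test, and PRX25 (AT2G41480) and PRX64 (AT5G42180) were lower without passing it. PRX4 had values of 4.77 in b'γ, 2.77 in b'γζ, -0.04 in b'γ sid2 and 0.54 in complemented plants, with a largest SE of 2.42 (adjusted p of 0.211 in b'γ). PRX71, which also limits cell size in Arabidopsis, had 2.70, 0.73, 0.32 and -0.27 (largest SE 1.59, adjusted p of 0.319 in b'γ). PRX64, which polymerises lignin of the Casparian strip in the root, had -1.70 in b'γ, -1.71 in b'γζ, -1.39 in b'γ sid2 and -0.60 in complemented plants. It was below wild type in all 4 lines, by at least 2-fold in 3, and passed the test in none (largest SE 0.638, adjusted p from 0.0646 to 1). PRX25 had -1.64 in b'γ, 0.68 in b'γζ, -0.05 in b'γ sid2 and -0.35 in complemented plants (adjusted p of 0.11 in b'γ). PRX72 (AT5G66390) and PRX2 (AT1G05250), further members of the family, are not among the listed genes and have no value here.

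Of the remaining members higher in b'γ, PRX49 had 3.84 in b'γ, AT3G03670 3.50 and AT4G33420 3.42, with adjusted p-values of 0.235, 0.101 and 0.0957. AT3G03670 was listed at 0 in b'γ sid2 and in complemented plants and at 0.01 in b'γζ. AT4G33420 lay below wild type in the other lines, at -0.38 in b'γζ, -1.48 in b'γ sid2 and -0.61 in complemented plants. PRX49 had 0.95 in b'γζ, 0.37 in b'γ sid2 and 0.16 in complemented plants.

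The lower side was smaller in size, and none of the 6 class III members there fell by the largest-error test. By that test 2 had an unadjusted p under 0.05, and 6 passed a test that assumes line differences of the same size in both leaf parts. That assumption was not tested, and the authors' corrected interaction p was 4.1e-07 for PRX12, 2.78e-08 for PRX42 and 0.0097 for PRX63. For counts by these 2 rules, here and for the other lines, no share of all listed genes is given, so they carry no comparison. PRX12 (AT1G71695) was lowest, with -2.30 in b'γ, -0.40 in b'γζ, -0.04 in b'γ sid2 and -0.45 in complemented plants (largest SE 1.46, adjusted p of 0.375 in b'γ). PRX42 (AT4G21960) had -1.24, -0.33, -0.10 and -0.39 (largest SE 1.22, adjusted p of 0.698 in b'γ). PRX63 and PRX19 had -1.21 and -1.03 in b'γ. PRX29 was under 2-fold but had the smallest largest SE among the class III members, 0.144, with -0.85 in b'γ, -0.33 in b'γζ, -0.80 in b'γ sid2 and -0.55 in complemented plants. Its adjusted p was 2.79e-05 in b'γ, 0.398 in b'γζ, 7.22e-05 in b'γ sid2 and 0.0321 in complemented plants, and since no value reached 2-fold it is not counted among the members that fell.

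**Figure D3:**
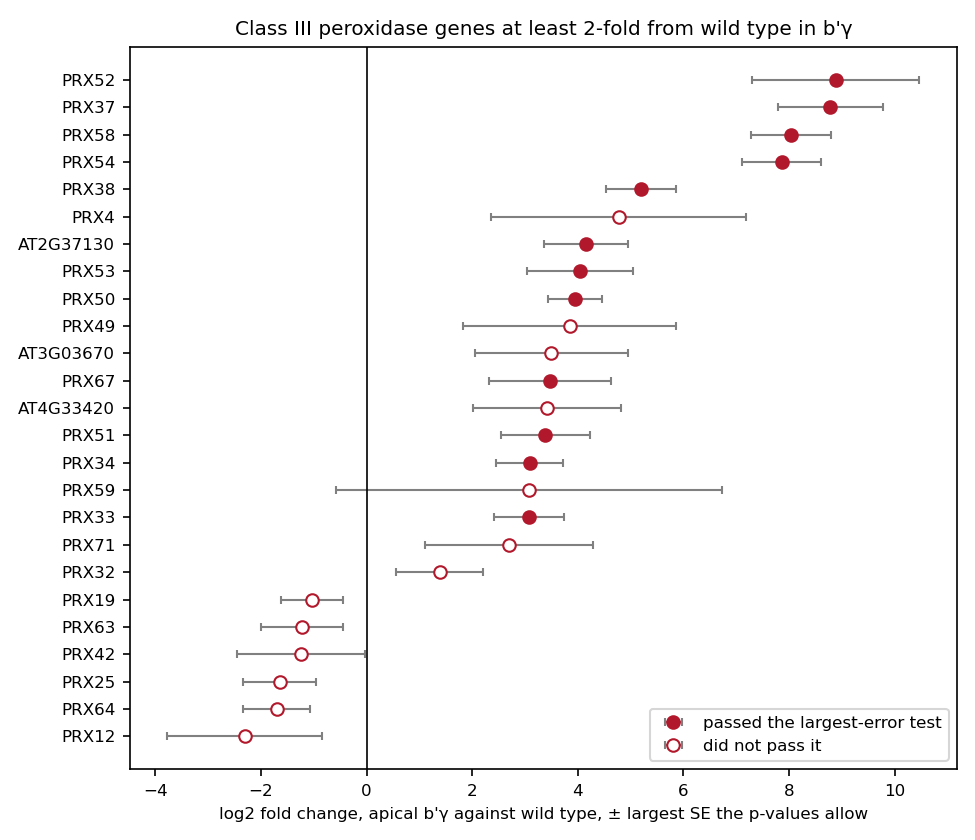
Deposited log2 fold changes in apical b'γ against wild type (horizontal axis) of the 25 class III genes at least 2-fold from wild type (rows), with bars of the largest SE that the deposited p-values allow; filled circles passed the largest-error test and open circles did not. The 12 filled circles run from 3.07 (PRX33) to 8.88 (PRX52), and PRX59, at 3.08, has the longest bar, an SE of 3.66.

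Among the 7 members that are not class III enzymes, AT1G67600, a haloperoxidase-related protein, fell to -1.15 in b'γ (largest SE 0.373, adjusted p of 0.0277), with -0.62 in b'γζ, -0.74 in b'γ sid2 and -0.53 in complemented plants. AT3G12685, AT3G42570 and AT1G33660 were lower in b'γ at -1.34, -1.30 and -1.14 without passing the test. AT3G42570 had -0.03 in b'γζ, -0.99 in b'γ sid2 and -0.78 in complemented plants. OCP3, which in Arabidopsis restrains resistance to necrotrophic fungi, had -0.52 in b'γ, and AT3G61770 and AT3G21610 had -0.67 and 0.38.

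In each of the other lines, fewer class III members stood 2-fold from wild type than in b'γ. In b'γζ, 2 of the 40 members were higher, PRX4 and PRX58 (5%, beside 4.69% of listed genes). PRX64 was lower (2.5%, beside 2.92%), so both shares were near those of all listed genes. The count that passed the largest-error test in b'γζ was 0 in each direction, where 1.17% of listed genes rose and 0.647% fell; 1 member in each direction had an unadjusted p under 0.05, and 1 in each direction passed with line differences of the same size in both leaf parts. In b'γ sid2, 6 members were higher (15% of the 40, beside 6.55% of listed genes) and 2 lower (5%, beside 5.56%). The 6 were PRX67, PRX58, PRX32, PRX37, AT2G22420 and PRX54, and the 2 were AT4G33420 and PRX64. AT2G22420 alone rose there (2.51% of listed genes did), with 1.04 (largest SE 0.252, adjusted p of 0.00375), beside 0.34 in complemented plants, 0.29 in b'γζ and 0.27 in b'γ. Relative to the median of 8 reference genes its value in b'γ sid2 was 0.997, just under 2-fold. None fell in b'γ sid2 by the largest-error test (2.54% of listed genes did), 1 had an unadjusted p under 0.05, and 1 passed the test with line differences of the same size in both parts.

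In the complemented line, 2 members were higher, PRX67 and PRX58 (5% of the 40, beside 2.63% of listed genes), and 0 were lower (beside 2.22%). By the largest-error test 0 members rose and 0 fell, where 0.285% and 0.433% of listed genes did; the count at an unadjusted p under 0.05 was 0, and so was the count with line differences of the same size in both parts. The next highest member was PRX20, with 0.95 there, 0.10 in b'γ sid2, 0.81 in b'γζ and 0.34 in b'γ. PRX56 was among the 3 lowest members of b'γζ and of the complemented line, with -0.82 and -0.66, beside -0.81 in b'γ and -0.55 in b'γ sid2.

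Set directly against b'γ, in which wild type cancels, each of the 3 other lines had more members lower than higher. These differences reuse the b'γ values that gave the calls against wild type, so much of what follows restates those calls. A high value in b'γ alone can also bring a gene under the limit on the genotype p by which genes were listed. In b'γζ, 18 members were lower than in b'γ (14.5% of listed genes) and 5 higher (13.8%), and 11 fell (5.95%) while 1 rose (4.46%). In b'γ sid2, 18 were lower (15.8%) and 6 higher (16.1%), and 12 fell (7.22%) while 0 rose by the largest-error test (6.71%). In the complemented line, 19 were lower (15.1%) and 5 higher (12.9%), and 12 fell (6.36%) while 0 rose (4.34%). Among these higher members, 1 with sid2 and 0 in complemented plants had an unadjusted p under 0.05, and 6 and 4 passed with line differences of the same size in both parts. All members lower than b'γ in these 3 comparisons were class III enzymes. The median difference of the 33 class III members was -2.00 in b'γζ, -2.37 in b'γ sid2 and -2.97 in complemented plants, beside -0.01, -0.03 and -0.02 for all listed genes.

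PRX52 fell furthest against b'γ, with differences of -8.35 in b'γζ, -9.44 in b'γ sid2 and -9.04 in complemented plants, and adjusted p-values of 0.000195, 1.87e-05 and 5.43e-05. PRX33 also fell, with differences of -3.04 in b'γζ, -2.78 in b'γ sid2 and -3.02 in complemented plants, and adjusted p-values of 0.00107, 0.00196 and 0.00108. The difference of PRX67 was -3.16 in b'γζ, -1.30 in b'γ sid2 and -1.84 in complemented plants, none of which passed the test (adjusted p of 0.065, 0.643 and 0.404). AT4G33420, a gene with no call against wild type by the largest-error test, fell against b'γ, with differences of -4.90 in b'γ sid2 (adjusted p of 0.0103) and -4.02 in complemented plants (adjusted p of 0.0495). In b'γζ its difference from b'γ was -3.80 (adjusted p of 0.0679). The 1 member that rose against b'γ was PRX25 in b'γζ, by 2.33 (largest SE 0.695, adjusted p of 0.0191). Whether any of these 3 lines differ from one another in a member was not tested.

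The basal parts enter the deposited table through its p-values for leaf part and for the interaction of line and leaf part. In the authors' deposited table, 21 of the 40 members had a corrected interaction p under 0.05 (42.4% of listed genes), 17 of them class III, so their line differences were not the same in both parts. A corrected tissue p under 0.05 was listed for 19 of 40 members (54.1% of listed genes), 18 of them class III. How far a line difference depended on the leaf part is described here by the interaction share, the part of the summed F values of line and interaction that falls to the interaction. It is near 0% where lines differ alike in both parts and near 50% where they differ in 1 part alone, and it is a description with no test. Its median was 16.7% over the 19 class III members higher in b'γ and 20.6% over all 3099 listed genes higher there.

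The share was under 5% for 4 of these 19 members, PRX38 (0.637%), PRX37 (2.22%), PRX54 (2.23%) and PRX58 (3.23%), and for 13.1% of the 3099 genes. These 4 include 3 of the 4 highest members, and in the authors' deposited table their corrected interaction p-values were 0.893, 0.317, 0.154 and 0.0565. PRX52, the highest, had a share of 10.3% and a deposited interaction p of 0.0017. PRX33 and PRX34 had shares of 24.2% and 22.7%, with deposited interaction p-values of 4.28e-09 and 1.17e-08. The largest shares among called members were those of PRX59 (59.1%), PRX42 (42.4%) and PRX12 (37.0%), and AT3G03670 followed with 34.7%. At the other end of the lower members, PRX25 had a share of 2.38%.

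**Figure D4:**
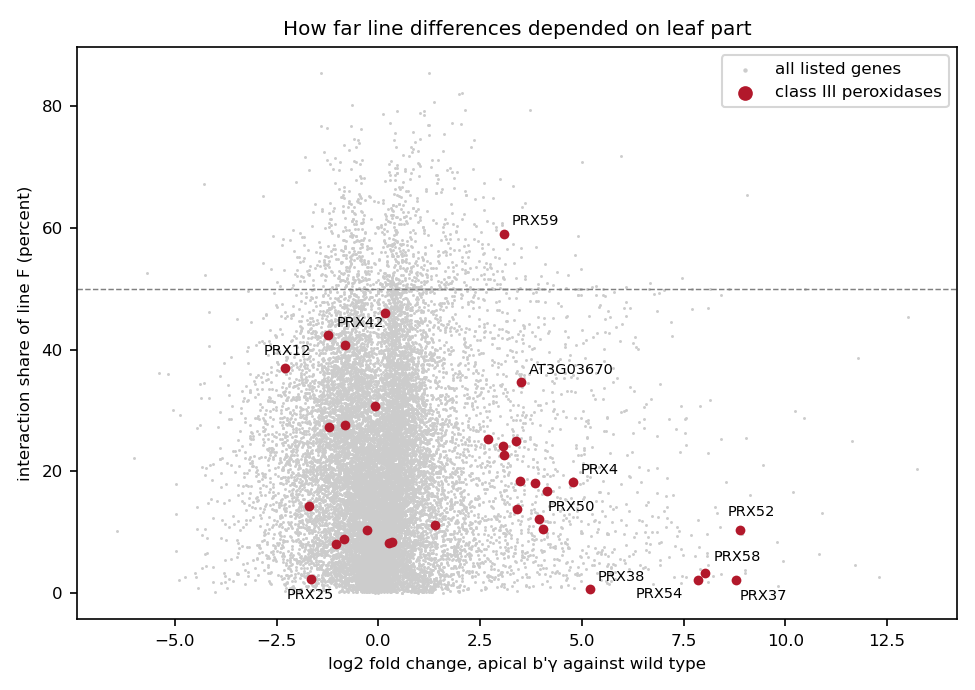
Interaction share of the line F values in percent (vertical axis, dashed line at 50%) against the deposited log2 fold change in apical b'γ (horizontal axis) for all listed genes (grey) and the 33 class III members (red). PRX37, PRX38, PRX54 and PRX58 lie near the bottom on the right, at shares under 5%, and PRX59 lies above the dashed line at 59.1%.

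What the members shared beyond the rule was looked for in gene structure, coding sequence and the 300 bases before the annotated gene start. Of the 19 class III members higher in b'γ, 15 had 4 coding exons, as had 3 of the 6 lower ones and 22 of all 33, and the median coding length was 990 bases in each of the 3 sets. The median coding identity was 53.7% over the 171 pairs of members that were both higher, 51.6% over the 15 pairs both lower and 52.1% over the 114 mixed pairs. The 3 medians lie close together and carry no test.

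The promoter windows were searched on both strands for TTGAC (the core of the W-box, bound by WRKY factors), TGACG (bound by TGA factors), GCCGCC (the GCC box, bound by ethylene response factors) and CACGTG (the G-box). TTGAC and TGACG can overlap by sharing TGAC. TTGAC occurred in 14 of 33 class III windows (42.4%), beside 50.4% of the windows of all 27443 protein-coding genes. It occurred in 9 of the 19 higher members (47.4%), beside 62.2% of listed genes higher in b'γ, and in 1 of the 6 lower ones. TGACG occurred in 3 of 33, beside 21.3% of all genes, GCCGCC in 2 of 33 (PRX38 and PRX59), beside 2.26%, and CACGTG in 0 of 33, beside 7.09%. A match is a run of letters, not a shown binding site. PRX50 and PRX51, near-identical neighbours, had none of the 4 motifs, and PRX53 and PRX54 had 1 and 2 TTGAC matches. The windows of PRX52 and of 2 other pairs of neighbours follow, from RefSeq's TAIR10.1 genome, 5′ to 3′ on the gene's strand. TTGAC or its reverse complement GTCAA and GCCGCC are in capitals. These 2 pairs were picked because their genes differed in the motifs.
PRX52, chromosome 5, 1580876 to 1581175, minus strand: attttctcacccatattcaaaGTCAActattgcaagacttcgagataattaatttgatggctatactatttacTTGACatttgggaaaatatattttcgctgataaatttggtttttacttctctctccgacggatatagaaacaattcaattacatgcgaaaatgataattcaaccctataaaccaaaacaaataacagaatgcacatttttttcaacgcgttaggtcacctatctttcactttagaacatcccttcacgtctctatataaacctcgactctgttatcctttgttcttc
PRX37, chromosome 4, 5600399 to 5600698, minus strand: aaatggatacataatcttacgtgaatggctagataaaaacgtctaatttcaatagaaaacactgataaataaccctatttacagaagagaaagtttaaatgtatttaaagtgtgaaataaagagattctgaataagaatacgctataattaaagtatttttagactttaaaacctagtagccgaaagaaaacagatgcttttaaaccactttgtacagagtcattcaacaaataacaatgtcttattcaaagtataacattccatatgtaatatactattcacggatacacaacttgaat
PRX38, chromosome 4, 5603805 to 5604104, plus strand: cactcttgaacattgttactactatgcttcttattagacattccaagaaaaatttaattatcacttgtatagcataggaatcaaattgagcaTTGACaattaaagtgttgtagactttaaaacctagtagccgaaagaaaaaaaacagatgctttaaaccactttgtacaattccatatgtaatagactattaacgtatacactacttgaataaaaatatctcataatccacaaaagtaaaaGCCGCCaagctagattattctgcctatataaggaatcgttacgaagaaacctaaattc
PRX33, chromosome 3, 18200287 to 18200586, plus strand: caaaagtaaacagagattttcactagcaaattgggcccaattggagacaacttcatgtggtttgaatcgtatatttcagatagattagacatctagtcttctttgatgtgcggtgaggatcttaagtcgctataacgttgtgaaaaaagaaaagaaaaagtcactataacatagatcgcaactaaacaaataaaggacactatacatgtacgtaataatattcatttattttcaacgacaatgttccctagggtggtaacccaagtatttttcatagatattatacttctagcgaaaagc
PRX34, chromosome 3, 18207351 to 18207650, plus strand: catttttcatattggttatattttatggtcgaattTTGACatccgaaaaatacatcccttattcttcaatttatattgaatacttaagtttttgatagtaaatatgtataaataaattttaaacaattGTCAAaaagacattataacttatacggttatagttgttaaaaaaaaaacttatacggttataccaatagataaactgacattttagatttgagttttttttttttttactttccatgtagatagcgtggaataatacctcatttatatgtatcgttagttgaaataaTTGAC
PRX52 had 2 TTGAC matches. PRX37, the higher of its pair in b'γ, had none of the 4 motifs, and PRX38 had 1 TTGAC and 1 GCCGCC. PRX33 had none and PRX34 had 3 TTGAC matches, at nearly the same deposited values in b'γ, 3.07 and 3.09.

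Genes that supply or use the same chemistry were set beside the peroxidases. Of 18 genes of lignin monomer synthesis, all listed, 16 were higher in b'γ and 1 was lower, and 11 rose, with a median deposited value of 2.48. The largest were PAL1, which encodes a phenylalanine ammonia-lyase at the entry of the pathway, and PAL4, another. PAL1 rose to 4.91 (largest SE 1.23, adjusted p of 0.00365), and PAL4 had 4.74 and did not pass the test (adjusted p of 0.52). In b'γζ, 1 gene of the pathway was higher (CCR2, 1.13) and 1 lower (PAL4, -1.03), neither passing the test, in b'γ sid2 3 were higher, of which CAD4 rose to 1.32 (adjusted p of 0.00368) and 4CL3 had 1.44 (adjusted p of 0.766), and in complemented plants 0 were 2-fold from wild type. Against b'γ, 16 were lower in b'γζ, 15 in b'γ sid2 and 16 in complemented plants, and 11, 9 and 11 fell.

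The oxidases and wall proteins lay on both sides of wild type in b'γ. Of 10 RBOH genes, which encode the NADPH oxidases that make apoplastic superoxide, 4 were listed, and 2 were higher in b'γ without passing the test, RBOHE with 2.30 (adjusted p of 0.598) and RBOHF with 1.32 (adjusted p of 0.439). In b'γζ, RBOHE had 1.22 and RBOHD 1.15, and neither passed the test. Laccases are copper oxidases that also join lignin monomers, and 8 of 17 were listed. LAC7 rose to 6.67 in b'γ (largest SE 1.64, adjusted p of 0.0031) and was listed at 0 in the other 3 lines. As for PRX59, its b'γ value is therefore not read as a fold against a measured level. LAC2 had -2.69 in b'γ, and LAC11 and LAC12 had 1.18 and -1.15 in b'γ sid2, none of them passing the test.

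Of 28 genes whose annotation names extensins or related proline-rich wall proteins, 8 were higher in b'γ and 11 lower, 3 rose and 5 fell, and the median was -0.23. ATEXT1 rose to 8.28 (adjusted p of 1.97e-05) and RSH, an extensin needed for the first cell walls of the embryo, to 7.43 (adjusted p of 4.34e-07). In b'γζ, 2 of the 28 were higher and 4 lower, and 1 passed the test, AT3G26960 with -1.93 (adjusted p of 0.00104), beside -1.75 for ELP, which did not pass. In b'γ sid2, 5 were higher and 5 lower, 1 rose and 2 fell. AT2G16630 rose there to 1.80 (adjusted p of 0.00741), and AT2G15880 and AT3G26960 fell, with -2.09 and -1.74 (adjusted p of 0.000103 and 0.00172). RSH with 2.77 and ELP with -2.41, the largest values in that line, did not pass. In complemented plants none was higher and 2 were lower, ELP with -1.86 and AT2G27385 with -1.36, and neither passed. UPB1, which represses peroxidase genes in the Arabidopsis root, had 1.24 in b'γ, 0.87 in b'γζ, -0.66 in b'γ sid2 and -0.93 in complemented plants, and passed the test in none of them.

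**Figure D5:**
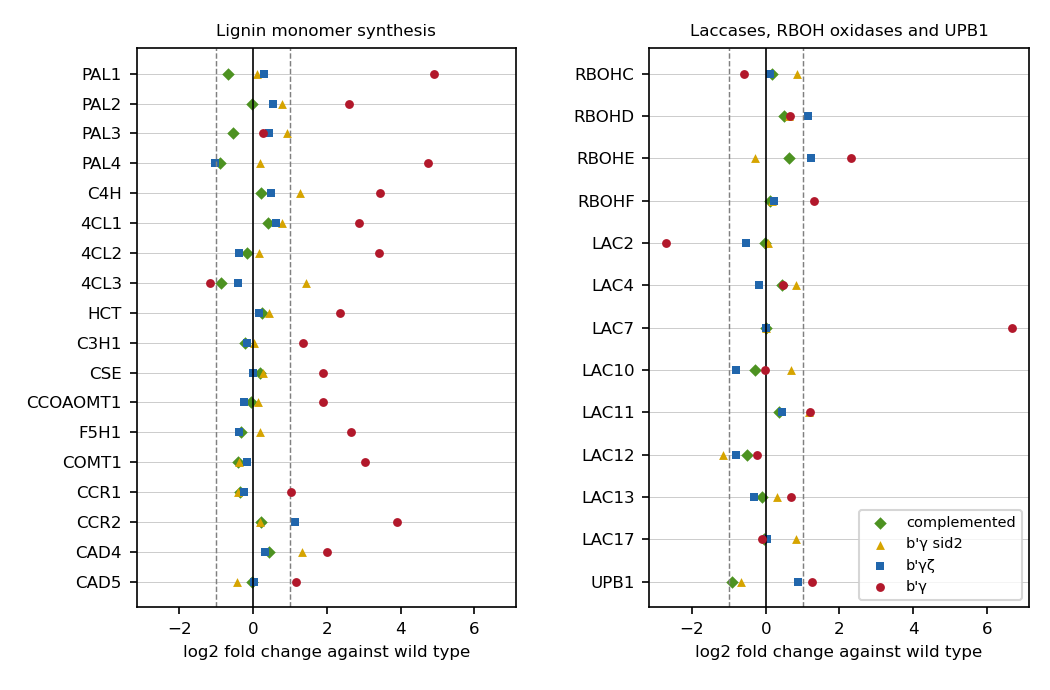
Deposited log2 fold changes against wild type (horizontal axes, dashed lines at 2-fold) of 18 genes of lignin monomer synthesis (left) and of the listed laccase and RBOH genes and UPB1 (right) in b'γ (circles), b'γζ (squares), b'γ sid2 (triangles) and complemented plants (diamonds). Of the 18 lignin genes, 16 circles lie at or beyond 2-fold above wild type. The circle of LAC7, a gene listed at 0 in the other lines, stands at 6.67.

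Markers of leaf cell types stood beside these values as follows in b'γ. Of 4 listed xylem markers 1 was higher (XCP1, 1.49) and 0 rose, with values from -0.56 to 1.49; of 3 epidermis and trichome markers 2 fell (FDH -1.78, ATML1 -1.51); the 2 phloem markers lay at -0.67 and -0.14; the 2 guard cell markers at -0.59 and 0.27; the 2 myrosin cell markers at -1.74 and -1.53, and at 3.15 and 2.07 in b'γ sid2; and of 3 mesophyll markers 2 were lower and 1 fell (LHCB2.1, -1.81). LHCB2.1, a chlorophyll-binding protein of the photosynthetic antenna, fell in the other lines as well, with -2.35 in b'γζ, -3.002 in b'γ sid2 and -2.59 in complemented plants (adjusted p of 4.86e-05, 1.72e-07 and 2.32e-05). XCP2 and GL1 are not listed. The part of cell composition in the peroxidase values was not tested. The median of 8 listed reference genes was 0.18 in b'γ, with values from -0.14 to 0.62. Being listed, these 8 differed between lines by the authors' corrected genotype p, so they are not a stable reference. SAND and GAPC2 are not listed. Relative to that median, the counts of all listed genes in b'γ move from 3099 higher and 2949 lower to 2621 and 3685. Those of the 40 members move from 19 and 10 to 19 and 12. Against b'γ, this centring moves the members from 18 lower and 5 higher to 18 and 7 in b'γζ, leaves 18 and 6 in b'γ sid2, and moves 19 and 5 to 18 and 8 in complemented plants. In b'γ sid2 against wild type it moves the members from 6 higher and 2 lower to 4 and 3.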

How the data were processed

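RNA was sequenced from 50 libraries of leaf parts, 5 pools per group, and the 10 groups were taken from the line and leaf part in the labels. Per the submitters' processing notes, bcl2fastq and DESeq were used on the TAIR10 build, and versions are not given in the sources used here. The authors deposited 1 table of 18231 genes with log2 fold changes of apical parts against apical wild type, as the authors computed them, and with p-values, uncorrected and corrected, for genotype, tissue and interaction. The header names no log base, and base 2 was taken. Of 12 frequent small values, 12 have a partner 0.2 higher within rounding, a step of 1 doubling in 1 of 5 libraries on base 2. The deposited values are so dense in this range that other steps could find partners too, so this does not settle the base. Each corrected p-value in the deposited table times its rank, over the uncorrected one, gave 25801 genes tested. Listed genes all have a corrected genotype p of at most 0.05, so a gene that is not listed has no value, and shares are shares of listed genes.

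For each gene, F values were computed back from the deposited p-values for genotype and for interaction, taking 4 and 40 degrees of freedom, as an analysis of variance over 5 lines, 2 leaf parts and 5 pools has. The F values and the 4 fold changes bound the residual variance, with line means within 20 log2 units. A contrast test with the largest variance allowed, adjusted by the Benjamini-Hochberg method over 25801 genes, is the largest-error test; one with the variance that follows if basal and apical line differences are of the same size is the equal-parts test. The bound is wide where both F values are nearly equal, which happens if lines differ in 1 leaf part alone, so a gene can fail at a large change. An exact test over pools could not be made from the table. Of 159 genes listed at 0 in 3 lines, 69 had F values equal within 2%, beside 195 of all 18231. Equal p-values give equal F values at any degrees of freedom that both share. The comparison thus does not check the 4 and 40 degrees of freedom, a variance common to all groups or the independence of pools. The reading treats pools as independent, although the apical and basal pools of 1 number share leaves. Calls took a size of at least 1 on the log2 scale.

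The members, the lists and the tests were chosen with earlier results of these data known. Members at least 2-fold from wild type in any line are named, with 4 values for the 3 highest and lowest of each line and for members with a known role, and of other lists the 2 largest changes in each line with a called gene. Members were matched by locus identifier to RefSeq's TAIR10.1 genome and annotation (40 of 40 matched), from which structure, coding sequences and the 300 bases before the gene start were read. Alternatives were size limits of 0.5 and 2, a corrected p under 0.01, the equal-parts test, centring on reference genes or on all listed genes, class III members only, and 1 value per pair of at least 80% identity. Python 3.11.15, numpy 2.4.6, pandas 2.3.3, SciPy 1.17.1, Biopython 1.88 and matplotlib 3.10.9 were used.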

Additional observations from a re-analysis of the deposited data

Results flagged for a closer look

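In the authors' deposited table, 21 of the 40 members had line differences that were not the same in the apical and basal parts. The measure was the authors' corrected p-value for the interaction of genotype and tissue, under 0.05. This is 52.5% of the members, beside 42.4% of all listed genes, so such differences were common over the whole table. The direction in the basal parts is not part of the values used. Among neighbouring or near-identical genes that rose in b'γ, this interaction p was 4.28e-09 for PRX33, 1.17e-08 for PRX34, 8.33e-07 for PRX50 and 3.52e-09 for PRX51. It was 1.32e-05 for AT2G37130, 0.0017 for PRX52, 0.0106 for PRX67 and 0.049 for PRX53, which also rose. For members higher in b'γ without passing the largest-error test, the deposited p was 3.41e-10 for AT3G03670, 1.4e-07 for PRX59 and 0.0209 for PRX71. For class III members below wild type in b'γ, it was 2.78e-08 for PRX42, 4.1e-07 for PRX12, 0.0097 for PRX63, 0.00985 for PRX31 and 0.0101 for PRX29. PRX39, listed at 0 in 3 lines and at 0.17 in b'γ, had 1.3e-05, and its corrected tissue p in the deposited table was 3.55e-16. For members that are not class III enzymes, the deposited interaction p was 1.4e-05 for AT3G12685, 0.000471 for OCP3, 0.00056 for AT3G21610 and 0.00772 for AT3G61770. PRX37, PRX38, PRX54 and PRX58, among the highest members in b'γ, were not in this set.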

How the results depend on the processing

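Against wild type, 29 members were at least 2-fold away in b'γ, 3 in b'γζ, 8 in b'γ sid2 and 2 in complemented plants, and against b'γ 23, 24 and 24 were so in b'γζ, b'γ sid2 and complemented plants. The largest-error test left 13, 1 and 0 in b'γ, b'γ sid2 and both of b'γζ and complemented plants, and 12 in each comparison with b'γ, fewer by construction since it adds a second criterion. The equal-parts test left 5 in b'γ sid2 and 0 in complemented plants. A size limit of 2 left 19 in b'γ, 1 in b'γζ, 3 in b'γ sid2 and 0 in complemented plants. A limit of 0.5 gave 12 in b'γζ, 16 in b'γ sid2 and 14 in complemented plants. For these 2 limits and the equal-parts test no share of all listed genes is given, so those counts carry no comparison. The remaining alternatives left each of the counts at 2-fold within 1.5 times. Of 42 values of single members, none changed direction: centring on all listed genes kept the call of 42, centring on reference genes that of 40, with PRX64 in b'γ passing in addition and AT2G22420 in b'γ sid2 no longer reaching 2-fold, as PRX54 there, which had not passed, and the equal-parts test that of 20 with 22 more passing. No paired analysis was possible because the table used holds no values per pool, and for the same reason leaving out a pool was not run. Depth is unknown, so no limit on low genes could be set.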
